A study of Mus musculus with 22 samples.

Results

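A set of 10 genes of the mouse small RNA pathway was followed across GV oocytes of 8 genotypes: *Dicer1*, *Drosha*, *Dgcr8*, *Xpo5*, *Tarbp2*, *Prkra*, *Ago1*, *Ago2*, *Ago3* and *Ago4*. They were chosen by name, as the enzymes, partners and Argonautes that make and use microRNAs and small interfering RNAs, and not by a threshold on a measured value. All 10 were among the 52636 genes of the count table, and all 10 passed the filter on low counts in both sequencing runs.

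Small RNAs of this pathway are cut from double-stranded precursors and loaded onto Argonaute proteins. MicroRNA precursors are first released in the nucleus by the microprocessor, in which the RNase III enzyme DROSHA works with its RNA-binding partner DGCR8, and are carried to the cytoplasm by Exportin 5, the product of *Xpo5*. Dicer, the product of *Dicer1*, cuts them to their final length together with the double-stranded RNA binding proteins TARBP2 and PRKRA, and it also makes small interfering RNAs from long double-stranded RNA. Mouse oocytes are known for strong RNA interference and weak microRNA activity, and they use a shortened, oocyte-specific Dicer (Dicer O) that starts from a retrotransposon promoter in intron 6 of *Dicer1*.

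RNA-seq had been performed on samples of pooled, fully-grown GV oocytes from C57BL/6 females. A single-end run held wild-type *Dicer* WT/WT oocytes (n = 3), *Dicer* ΔMT/WT oocytes (n = 1), *Dicer* ΔMT/ΔMT oocytes (n = 4) and *Dicer* SOM/SOM oocytes (n = 3), whose ages were not in the labels. A paired-end run held 4 genotypes that all carried at least 1 *Dicer* SOM allele and at least 1 *Mili* DAH allele, so none of its groups was wild type. These were heterozygous controls, *Mili* DAH/WT with *Dicer* SOM/WT (HET, n = 4, at 36, 38, 10 and 17 weeks of age), RNAi mutants, *Mili* DAH/WT with *Dicer* SOM/SOM (RNAi, n = 2, at 17 and 13 weeks), a piRNA mutant, *Mili* DAH/DAH with *Dicer* SOM/WT (piRNA, n = 1, at 16 weeks), and double mutants, *Mili* DAH/DAH with *Dicer* SOM/SOM (DBL, n = 4, at 40, 35, 11 and 11 weeks). The ΔMT deletion removes the MTC retrotransposon promoter of Dicer O and leaves a further retrotransposon promoter, MTA, in the same intron. The SOM allele encodes an HA-tagged full-length Dicer, lacks introns 2 to 6 and with them both promoters, and came from 1 embryonic stem cell clone. The DAH allele changes the catalytic triad of MILI and leaves its mRNA to be counted, so *Mili* counts do not check this genotype.

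Total counts per sample ranged from 6468380, in *Dicer* SOM/SOM replicate 3, to 90713013 in the single-end run, and from 22928936 to 43540806 in the paired-end run. All 10 oocyte markers, such as *Zp3*, *Gdf9* and *Bmp15*, had a mean of at least 1 CPM, with summed levels of 14127 to 16194 CPM in the single-end run and 12644 to 15762 CPM in the paired-end run. Of the 10 granulosa and cumulus markers, 6 and 7 had a mean of at least 1 CPM, with sums of 83.4 to 128 CPM and 94.4 to 152 CPM. Of the 7 blood and immune markers, 1 in each run had such a mean, and their sums were 28.8 to 58.5 CPM and 28.6 to 65.2 CPM. *Gm42418*, a gene that overlaps ribosomal RNA, divided the paired-end samples into 6 with 4086 to 5503 CPM and 5 with 294 to 557 CPM, and both HET and DBL had 2 samples on each side while both RNAi samples were on the high side. In the single-end run *Gm42418* was at 12719 and 17284 CPM in *Dicer* SOM/SOM replicates 1 and 3 and between 4759.9 and 7569 CPM in all other samples.

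*Dicer1* lies on the minus strand of chromosome 12 at chr12:104687742-104751952 (GRCm38). Its count was taken over 27 exons with 9851 bases. Exons 1 to 6 made up 983 of these bases, or 9.98%, and exons 7 to 27 made up 8868 bases, or 90.02%, which Dicer O shares with the full-length form. Intron 6, at chr12:104724071-104728332 with 4262 bases, was not part of the count, so the alternative first exons of the oocyte transcripts did not add to it. The sites that tell the forms apart are shown here because the counts cannot: the junction of exons 6 and 7, found only in full-length transcripts, and the sites of the study's forward primers for the alternative first exons of intron 6 and for exon 12, which all forms contain. All are given 5′ to 3′ on the strand of the gene, from GENCODE transcripts Dicer1-201 and Dicer1-202 and the study's primer list, with exon 7 in capitals in the junction and the primer in capitals elsewhere.
Exon 6 to exon 7: ggtggtcctggacagATACACTTCTCAGCC
AltE1 in intron 6, chr12:104727330-104727353: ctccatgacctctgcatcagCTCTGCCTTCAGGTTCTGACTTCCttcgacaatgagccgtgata
AltE2 in intron 6, chr12:104726302-104726322: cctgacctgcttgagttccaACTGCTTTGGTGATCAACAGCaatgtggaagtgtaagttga
Exon 12, chr12:104710632-104710655: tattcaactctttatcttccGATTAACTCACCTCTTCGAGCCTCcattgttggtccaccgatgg

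Levels are given as CPM, the counts scaled to a common library size, after TMM normalization within a run. *Dicer1*, the gene changed by the ΔMT and SOM alleles, was measured at 997, 1048 and 997 CPM in wild-type oocytes, at 533, 478, 428 and 505 CPM in *Dicer* ΔMT/ΔMT oocytes and at 52.2, 54.4 and 41.6 CPM in *Dicer* SOM/SOM oocytes. With 718 CPM the *Dicer* ΔMT/WT sample was below all wild-type and above all *Dicer* ΔMT/ΔMT samples. In this sample 27.7% of all tested genes were below all wild-type samples. Among the paired-end samples *Dicer1* was at 680, 763, 502 and 614 CPM in HET, at 53.8 and 62.1 CPM in RNAi, at 596 CPM in the piRNA mutant and at 60.8, 58.0, 58.7 and 53.2 CPM in DBL. The highest oocyte sample with 2 SOM alleles, at 62.1 CPM, was far below the lowest of the others, at 428 CPM, so *Dicer1* went with the labels in every sample. In pooled oocytes less RNA per cell and fewer cells with the RNA cannot be told apart, here and for the other genes.

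Tests used the edgeR quasi-likelihood test with Benjamini-Hochberg adjustment over all tested genes, and a gene was called at an adjusted p under 0.05. *Dicer1* was lower in *Dicer* ΔMT/ΔMT (log2 fold change −1.06, standard error 0.10, adjusted p = 8.47e-05), in *Dicer* SOM/SOM (−4.34, 0.13, 3.67e-08), in RNAi (−3.46, 0.19, 6.26e-08) and in DBL (−3.47, 0.14, 2.59e-09), each against the controls of its run. These calls stood in all alternatives, and the values stayed between −1.11 and −0.99, −4.42 and −4.24, −3.57 and −3.27, and −3.56 and −3.31. DBL and RNAi differed by −0.008 on the log2 scale, with a 95% interval of −0.35 to 0.34 and with a sign that changed among the alternatives, which lay between −0.12 and 0.10. The change from the controls was 0.91 log2 units larger in size in the single-end than in the paired-end run (standard error 0.20, adjusted p = 0.121 in edgeR, which called 0.00806% of all genes), where the controls carried 2 and 1 *Dicer* WT alleles. The difference was called by DESeq2, at −0.83 with an adjusted p = 0.0205, and was −0.74 without *Dicer* SOM/SOM replicate 3. The labels do not name the female behind each sample. The paper calls the wild-type, *Dicer* ΔMT/ΔMT, *Dicer* SOM/SOM, HET and DBL samples biological replicates. The ages within HET and within RNAi all differed, and those within DBL did in part. The p-values measure only the spread between these samples.

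**Figure D1:**
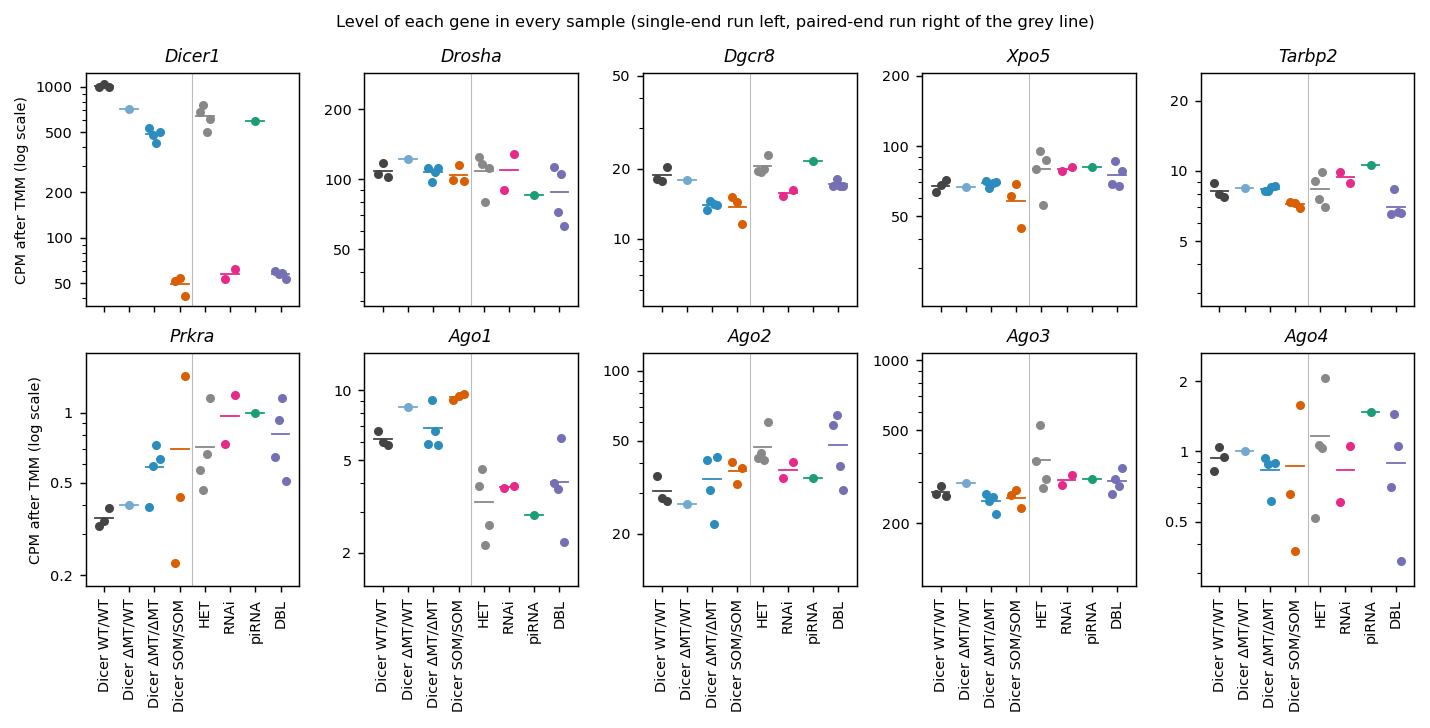
CPM after TMM normalization on log axes for the 10 genes in each sample, with points for samples and lines for group means, and the grey line parting the single-end from the paired-end run. *Dicer1* falls to between 41.6 and 62.1 CPM in all *Dicer* SOM/SOM samples, while *Dgcr8* sits slightly lower in the *Dicer* ΔMT/ΔMT, *Dicer* SOM/SOM, RNAi and DBL samples than in the controls of their run.

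To compare the genes with each other, CPM was divided by the annotated exon length in kilobases. How much of this length the oocyte transcripts of each gene contain was not checked. *Dicer1* had the highest level of the 10 genes in wild-type oocytes, at 103 ± 3.01 CPM per kb (SD, n = 3), above 97.6% of the tested genes. *Drosha* followed with 23.8 ± 1.85, *Xpo5* with 18.2 ± 1.02 and *Ago3* with 17.5 ± 0.964 CPM per kb, of which *Xpo5* and *Ago3* overlapped between samples. The next were *Tarbp2* at 5.03 ± 0.383, *Dgcr8* at 4.13 ± 0.311, *Ago2* at 2.23 ± 0.317 and *Ago1* at 0.852 ± 0.0616 CPM per kb, without overlap between neighbours. *Prkra* and *Ago4* were lowest, at 0.219 ± 0.0211 and 0.144 ± 0.0165 CPM per kb, above 18.0% and 13.4% of the tested genes.

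*Dicer1* was also the highest of the 10 in *Dicer* ΔMT/ΔMT oocytes, at 49.3 ± 4.55 CPM per kb (n = 4), and in HET, at 64.9 ± 11.2 CPM per kb (n = 4). In *Dicer* SOM/SOM oocytes it ranked below *Drosha*, *Ago3* and *Xpo5*, at 5.02 ± 0.698 CPM per kb (n = 3), and its range overlapped that of *Tarbp2* at 4.43 ± 0.158. It had the same rank in RNAi, at 5.89 ± 0.595 CPM per kb (n = 2), where it again overlapped *Tarbp2* at 5.78 ± 0.448, and in DBL, at 5.86 ± 0.329 CPM per kb (n = 4), where it was above *Tarbp2* at 4.33 ± 0.553 in every sample. At this level it lay above 63.3%, 65.8% and 65.4% of the tested genes in the 3 groups. The other 9 genes kept their order in *Dicer* ΔMT/ΔMT, and in the other groups only neighbours among *Drosha*, *Xpo5* and *Ago3* and the pair *Ago1* and *Prkra* changed places. In HET, the ranges of *Ago3*, *Drosha* and *Xpo5* overlapped, as did those of *Tarbp2*, *Dgcr8* and *Ago2* and of *Ago1*, *Prkra* and *Ago4* from one neighbour to the next.

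**Figure D2:**
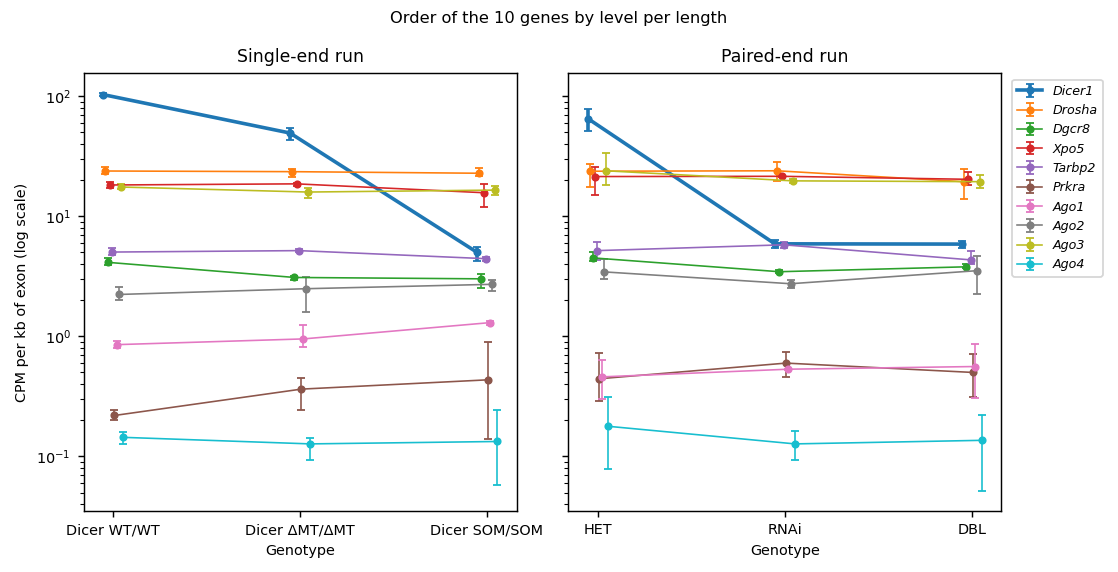
Mean CPM per kb of exon on a log axis for the 10 genes in the groups with at least 2 samples, with bars from the lowest to the highest sample. *Dicer1* moves from the first place to the one below *Drosha*, *Xpo5* and *Ago3* where both alleles are SOM, next to *Tarbp2*.

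Across the 4 comparisons with controls, calls on the 10 genes are given beside the share of all tested genes called. Against wild type, 2 of the 10 genes were called lower in *Dicer* ΔMT/ΔMT oocytes, *Dicer1* and *Dgcr8*, and none higher, where 7.30% and 8.06% of all tested genes were called lower and higher. Both were also called lower in *Dicer* SOM/SOM oocytes and *Ago1* was called higher, where the background was 14.2% and 14.5%. In RNAi and in DBL only *Dicer1* was called, where 10.7% and 21.2% of all genes were called in either direction. Over the 9 other genes the log2 fold change had a median size of 0.154, 0.286, 0.278 and 0.258 in the 4 comparisons, and over all tested genes of 0.296, 0.417, 0.379 and 0.385. The 2 comparisons of each run share their controls.

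**Figure D3:**
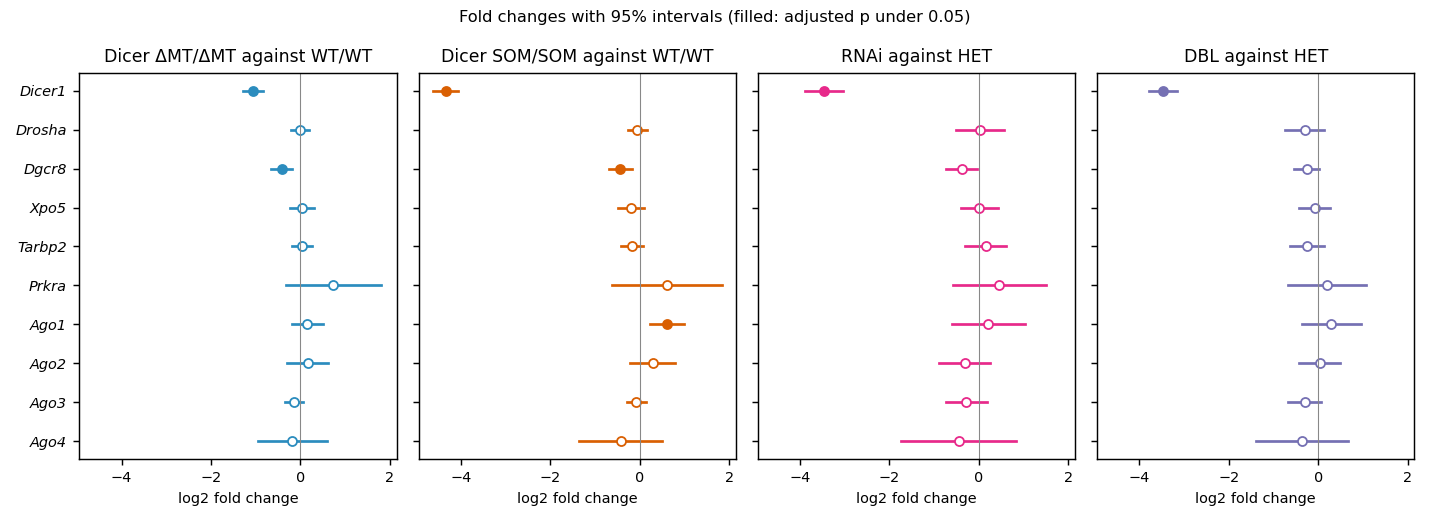
Log2 fold changes of the 10 genes with 95% intervals from edgeR in the 4 comparisons with controls, with filled points for an adjusted p under 0.05. Intervals of *Prkra* and *Ago4*, the genes with the lowest counts, are the widest. *Dicer1*, *Dgcr8*, *Ago3* and *Ago4* are left of 0 in all 4 panels, of which the 2 of each run share their controls.

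*Drosha* (chr15:12824815-12935290, plus strand), the RNase III enzyme of the microprocessor, was at 105, 118 and 102 CPM in wild type, 112, 97.6, 108 and 112 CPM in *Dicer* ΔMT/ΔMT and 99.7, 115 and 98.1 CPM in *Dicer* SOM/SOM. The ranges overlapped, and the log2 fold changes were −0.02 (95% interval −0.22 to 0.18) and −0.05 (−0.27 to 0.17). The paired-end samples gave 79.9 to 125 CPM in HET, 90.2 to 129 CPM in RNAi and 63.2 to 113 CPM in DBL, and the intervals of the changes, −0.52 to 0.55 and −0.73 to 0.14, were wider.

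*Dgcr8* (chr16:18253948-18289249, minus strand), the RNA-binding partner of DROSHA, was at 18.1, 17.7 and 20.3 CPM in wild type, 13.3, 14.5, 14.1 and 14.0 CPM in *Dicer* ΔMT/ΔMT and 15.1, 14.3 and 11.5 CPM in *Dicer* SOM/SOM. Each mutant value was below each wild-type value, as it was for 16.7% and 21.4% of all tested genes. It was at 19.6, 19.3, 19.9 and 22.9 CPM in HET, 15.2 and 16.1 CPM in RNAi and 16.9, 18.1, 16.9 and 16.8 CPM in DBL, so here too each mutant sample was below each control, as were those of 16.3% and 10.2% of all tested genes. Such a lower level without overlap in all 4 comparisons was found in 5.27% of the 20089 genes tested in both runs. The *Dicer* ΔMT/WT sample, with 17.9 CPM, and the piRNA mutant, with 21.6 CPM, were within the range of their controls.

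In *Dicer* ΔMT/ΔMT oocytes *Dgcr8* fell by 0.42 on the log2 scale (standard error 0.11, adjusted p = 0.0225 in edgeR), to 74.7% of wild type. This call rested on every sample of both groups: without any 1 of the 7, the adjusted p was between 0.0505, without *Dicer* ΔMT/ΔMT replicate 2, and 0.0942, without wild-type replicate 3, with changes between −0.45 and −0.36. It was also lost without a filter on low counts (adjusted p = 0.062). With both alleles SOM it fell by 0.43 (standard error 0.12, adjusted p = 0.019), to 72.8% of wild type, and this call was lost without wild-type replicate 3 (−0.38, adjusted p = 0.067) and in a fit of these 2 groups alone (−0.42, adjusted p = 0.071). With the replicate numbers of the titles as a block in edgeR, neither call stood (adjusted p = 0.0856 with both alleles ΔMT and 0.0532 with both SOM). In RNAi and DBL the changes were −0.38 (adjusted p = 0.164) and −0.25 (adjusted p = 0.207) in edgeR, neither of them called. The change in *Dicer* SOM/SOM against wild type and that in RNAi against HET differed by −0.08, with a 95% interval of −0.46 to 0.30. Among the paired-end samples with high *Gm42418*, the RNAi values of 15.2 and 16.1 CPM and the DBL values of 16.9 and 16.9 CPM stood against HET values of 19.6 and 22.9 CPM, and among those with low *Gm42418* the DBL values of 18.1 and 16.8 CPM stood against 19.3 and 19.9 CPM.

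Part of *Dgcr8* cannot be told apart from a neighbour, because counting ignored strand and 825 bases, 18.208% of its exon length, overlap *Trmt2a* on the other strand. *Trmt2a* was at 10.8 ± 1.60 CPM in wild type (n = 3), 10.3 ± 0.529 CPM in *Dicer* ΔMT/ΔMT (n = 4) and 10.8 ± 1.07 CPM in *Dicer* SOM/SOM (n = 3), and it was not called in any comparison. Its paired-end values were 9.10 ± 1.13 CPM in HET (n = 4), 11.4 ± 0.165 CPM in RNAi (n = 2) and 9.86 ± 1.36 CPM in DBL (n = 4). The log2 ratio of *Drosha* to *Dgcr8* in reads per kb within a sample, which needs no scaling between samples, was 2.52 ± 0.204 in wild type (n = 3), 2.93 ± 0.136 in *Dicer* ΔMT/ΔMT (n = 4) and 2.93 ± 0.194 in *Dicer* SOM/SOM (n = 3). In the paired-end run it was 2.38 ± 0.303 in HET (n = 4), 2.77 ± 0.304 in RNAi (n = 2) and 2.31 ± 0.429 in DBL (n = 4). In an exact two-sided permutation test, p was 0.0571 for *Dicer* ΔMT/ΔMT against wild type, which is the smallest value that 4 against 3 samples allow. For *Dicer* SOM/SOM against wild type it was 0.2, where 0.1 is the smallest. Such tests were run on 3 within-sample quantities, 18 in all. The group sizes allow no adjusted p under 0.114, so none of them could have been called and their p-values are a description.

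*Xpo5* (chr17:46202855-46242299, plus strand), the exporter of microRNA precursors, was at 63.7, 68.0 and 71.3 CPM in wild type, 70.5, 66.2, 69.7 and 70.3 CPM in *Dicer* ΔMT/ΔMT and 61.1, 69.0 and 44.3 CPM in *Dicer* SOM/SOM. The value of 44.3 CPM belonged to replicate 3, which had the fewest counts of all samples, and the change in *Dicer* SOM/SOM was −0.20 with it and −0.05 without it. In HET it was at 79.4, 95.3, 55.9 and 86.7 CPM, which enclosed both RNAi values of 78.3 and 80.9 CPM and all 4 DBL values, between 67.3 and 86.5 CPM.

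*Tarbp2* (chr15:102518357-102523676, plus strand), a double-stranded RNA binding partner of Dicer, was at 8.89, 7.93 and 7.72 CPM in wild type, 8.21, 8.20, 8.55 and 8.66 CPM in *Dicer* ΔMT/ΔMT and 7.38, 7.31 and 6.91 CPM in *Dicer* SOM/SOM. All values in *Dicer* SOM/SOM lay under those of wild type, which held for 21.4% of all tested genes, and the change of −0.17 was not called (95% interval −0.42 to 0.07, adjusted p = 0.281 in edgeR). In the paired-end run it was at 9.90 and 8.87 CPM in RNAi and at 6.52, 8.38, 6.66 and 6.57 CPM in DBL, and 3 of the DBL samples were below the HET range of 6.99 to 9.93 CPM (change from HET −0.26, 95% interval −0.63 to 0.12). The DBL samples were all below both RNAi samples, as were those of 7.05% of all tested genes. A part of its transcript, 25.7%, has a near-identical copy in *Gm18584*, so the counting may have divided reads between both.

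*Prkra* (chr2:76629898-76648015, minus strand), which encodes PACT, the other such partner of Dicer, was close to the limit of these libraries, with 10 to 54 counts per sample. It was at 0.325, 0.342 and 0.391 CPM in wild type, 0.394, 0.588, 0.726 and 0.634 CPM in *Dicer* ΔMT/ΔMT and 0.225, 0.436 and 1.44 CPM in *Dicer* SOM/SOM. The 4 *Dicer* ΔMT/ΔMT values were above those of wild type, as were those of 16.7% of all tested genes, but the change of 0.73 was not called (95% interval −0.32 to 1.79, adjusted p = 0.34 in edgeR). The change of 0.60 in *Dicer* SOM/SOM rested on replicate 3 and was −0.07 without it. Every paired-end sample was between 0.467 and 1.19 CPM.

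*Tarbp2* exceeded *Prkra* in every sample. The log2 ratio of the 2 in reads per kb was 4.53 ± 0.234 in wild type (n = 3), 3.87 ± 0.353 in *Dicer* ΔMT/ΔMT (n = 4) and 3.78 ± 1.41 in *Dicer* SOM/SOM (n = 3), and in the paired-end run it was 3.62 ± 0.698 in HET (n = 4), 3.31 ± 0.607 in RNAi (n = 2) and 3.18 ± 0.484 in DBL (n = 4). The largest difference of the means was −0.749, of *Dicer* SOM/SOM against wild type (p = 0.6 in the exact permutation test), and it rested on the *Prkra* value of replicate 3, without which it was 0.014.

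The Argonaute genes encode the proteins that hold the small RNA, and AGO2 is the one among them that cleaves perfectly paired targets. *Ago3*, *Ago1* and *Ago4* lie next to each other on the minus strand of chromosome 4 (chr4:126332732-126429556, chr4:126435012-126468583 and chr4:126489541-126533472), and *Ago2* lies on chromosome 15 (chr15:73095844-73184840, minus strand). *Ago3* made up 84.4 ± 1.79% of the summed Argonaute reads per kb in wild type (SD, n = 3), *Ago2* 10.8 ± 1.55%, *Ago1* 4.12 ± 0.307% and *Ago4* 0.693 ± 0.0701%. In HET the shares were 84.9 ± 4.11%, 12.8 ± 3.88%, 1.62 ± 0.263% and 0.676 ± 0.429% (n = 4). Over the samples of both runs the share of *Ago3* was never under 77.4%, and that of *Ago2*, the slicing Argonaute, was between 8.37% and 19.3%. These shares rest on annotated exon lengths, such as 15595 bases for *Ago3*, 13705 for *Ago2* and 7227 for *Ago1*. They would differ if oocyte transcripts were shorter, which was not checked.

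*Ago2* was at 35.5, 28.5 and 27.6 CPM in wild type, 41.4, 30.7, 22.0 and 42.6 CPM in *Dicer* ΔMT/ΔMT and 40.6, 32.8 and 38.1 CPM in *Dicer* SOM/SOM. The ranges overlapped, and the changes were 0.16 (95% interval −0.30 to 0.62) and 0.29 (−0.21 to 0.78). In HET it was at 42.1, 44.3, 41.5 and 60.4 CPM and in DBL at 58.6, 64.4, 39.0 and 30.9 CPM, with a change of 0.04 (−0.43 to 0.50) that was −0.53 among samples of at most 17 weeks. Both RNAi samples, at 34.8 and 40.4 CPM, were below all HET samples, as were those of 16.3% of all tested genes (change −0.32, −0.90 to 0.25). In its share of the Argonaute reads the largest difference of the means was 3.08 percentage points, between DBL and RNAi (p = 0.533 in the exact permutation test).

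*Ago1* was at 6.65, 6.02 and 5.80 CPM in wild type, 5.89, 9.05, 6.71 and 5.83 CPM in *Dicer* ΔMT/ΔMT and 9.06, 9.42 and 9.64 CPM in *Dicer* SOM/SOM. It was higher in *Dicer* SOM/SOM than in wild type without overlap, as were 20.0% of all tested genes, by 0.61 on the log2 scale (standard error 0.17, adjusted p = 0.0219 in edgeR), at 152% of the wild-type mean. The call was lost without wild-type replicate 2 (0.59, adjusted p = 0.0658), wild-type replicate 3 (0.56, adjusted p = 0.071) or *Dicer* SOM/SOM replicate 2 (0.60, adjusted p = 0.0541). Against *Dicer* ΔMT/ΔMT the *Dicer* SOM/SOM samples were also higher without overlap, as were those of 10.2% of all tested genes, by 0.45 (adjusted p = 0.114), and without *Dicer* ΔMT/ΔMT replicate 2, the one at 9.05 CPM, by 0.61 (adjusted p = 0.0298). In the paired-end run *Ago1* was at 3.89, 4.57, 2.16 and 2.64 CPM in HET, 3.81 and 3.88 CPM in RNAi and 3.99, 3.75, 6.23 and 2.23 CPM in DBL, which overlapped, with changes of 0.21 (95% interval −0.60 to 1.03) and 0.29 (−0.37 to 0.96). The changes of the 2 runs differed by 0.37, with an interval of −0.52 to 1.26.

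*Ago3*, the Argonaute gene with the highest level per kb of annotated exon, was at 266, 290 and 262 CPM in wild type, 268, 249, 258 and 219 CPM in *Dicer* ΔMT/ΔMT and 263, 277 and 233 CPM in *Dicer* SOM/SOM, with changes of −0.14 (95% interval −0.34 to 0.06) and −0.075 (−0.29 to 0.14). In HET it was at 368, 527, 284 and 311 CPM, which overlapped the values of RNAi, 293 and 321 CPM, and of DBL, 268, 308, 289 and 345 CPM. The changes of −0.28 and −0.30 were not called, and among samples of at most 17 weeks they were 0.04 and 0.10. *Ago4* had 10 to 85 counts per sample and was between 0.339 and 2.06 CPM throughout, with intervals of its changes that reached from −1.75 to 0.84.

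**Figure D4:**
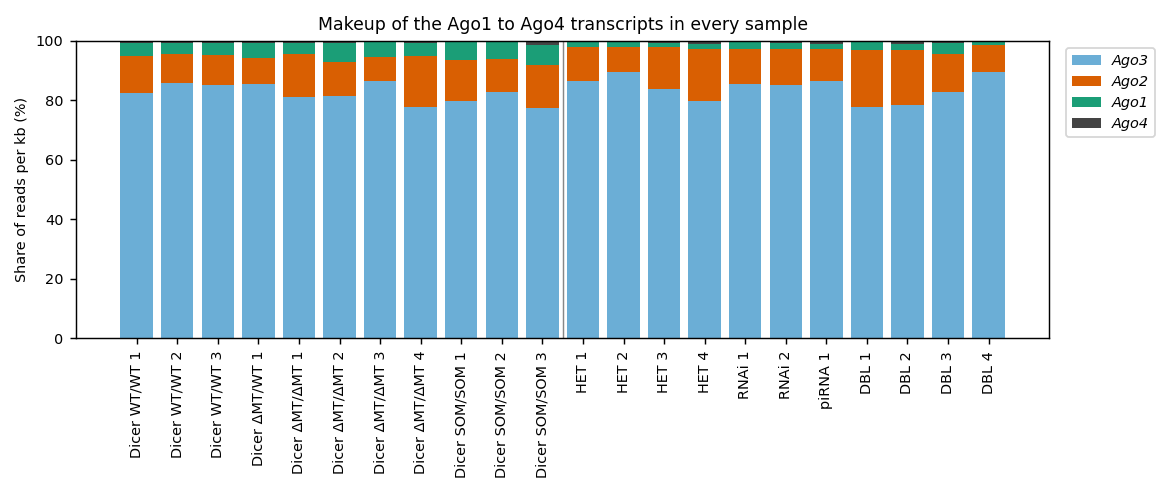
Share of each Argonaute gene in the summed reads per kb of exon of *Ago1* to *Ago4*, in percent, with 1 bar for each sample and the grey line parting the runs. *Ago3* fills at least 77.4% of every bar, and the *Ago1* part is 3.84% to 6.92% in the single-end and 1.25% to 3.85% in the paired-end run.

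Comparisons other than those with the controls added no further member. Of the 10 genes *Dicer1* alone was called between *Dicer* SOM/SOM and *Dicer* ΔMT/ΔMT (log2 fold change −3.28, adjusted p = 3.51e-07), where 7.35% of all tested genes were called. Between DBL and RNAi edgeR and DESeq2 called none and none had an unadjusted p under 0.05 in edgeR, where 0.314% of all tested genes were called and 4.78% had such a p. Between females of at least 35 and at most 17 weeks, with genotype (HET or DBL) as a term, edgeR called 0 of the 18641 tested genes, while 1022 of them, or 5.48%, had an unadjusted p under 0.05 and none of these was among the 10. The changes reached from −0.45 for *Prkra* (95% interval −1.38 to 0.46) to 0.31 for *Ago1* (−0.42 to 1.04). For *Ago2* the change with age differed between DBL and HET by 1.05 (adjusted p = 0.868 in edgeR), with 58.6 and 64.4 CPM in older against 39.0 and 30.9 CPM in younger DBL samples and 42.1 and 44.3 against 41.5 and 60.4 CPM in HET. Of the 10 genes *Ago2* had the smallest unadjusted p for this difference (0.00776 in edgeR), and none was called. The difference was 1.56 for *Ago4*, −0.95 for *Ago1* and −0.73 for *Ago3*.

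The lone piRNA mutant, in which both *Mili* alleles were DAH, was within the HET range for 8 of the 10 genes. *Tarbp2* was above it, at 10.6 CPM, and *Ago2* below it, at 34.6 CPM, where 17.8% and 18.3% of all tested genes were above and below all HET samples. In a fit that lent it the spread of the other groups, its adjusted p-values were at least 0.985 for all 10 genes in edgeR. The *Dicer* ΔMT/WT sample was outside the wild-type range for 6 of the 10 genes, where 29.2% and 27.7% of all tested genes were above and below all wild-type samples. This count was thus near the share over all genes. Among the 6 were *Dicer1*, below the range, and *Ago1*, above it at 8.44 CPM. For *Dicer1* the same kind of fit gave −0.50 against wild type (adjusted p = 0.501) and −0.56 for *Dicer* ΔMT/ΔMT against this sample (adjusted p = 0.0541 in edgeR).

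The pathway beyond these genes was followed with a list of 42 cofactors, of which all 42 passed the filter in the single-end and 41 in the paired-end run. Against their controls, 1 rose and 3 fell in *Dicer* ΔMT/ΔMT, 7 rose and 6 fell in *Dicer* SOM/SOM, 3 rose and 0 fell in RNAi, and 8 rose and 2 fell in DBL. Among all tested genes 8.06% were called higher and 7.30% lower in the first of these comparisons, 14.5% and 14.2% in the second, 7.07% and 3.64% in RNAi, and 12.3% and 8.84% in DBL. The median log2 fold change of the list was −0.094, −0.016, −0.019 and −0.015, beside 0.008, 0.017, −0.023 and −0.001 over all tested genes. *Hsp90ab1*, an HSP90 chaperone of the family that helps load Argonautes, was called higher in all 4 comparisons, from a mean of 427 CPM in wild type to 855 CPM with both alleles ΔMT and 1058 CPM with both alleles SOM, and from 543 CPM in HET to 1259 and 1214 CPM in RNAi and DBL. The share of all genes called higher in all 4 is not given here, and the comparisons of a run share their controls. *Tsnax*, which encodes TRAX, a subunit of the nuclease that removes passenger strands, rose from 98.6 to 264 CPM in *Dicer* SOM/SOM (log2 fold change 1.43, standard error 0.18), and from 128 CPM to 409 CPM in RNAi (1.67, 0.15) and 349.5 CPM in DBL (1.45, 0.13), and was not called in *Dicer* ΔMT/ΔMT at 124 CPM (adjusted p = 0.2 in edgeR). These calls of *Hsp90ab1* and *Tsnax* against controls stood in every alternative tried. *Hsp90ab1* was also called higher in *Dicer* SOM/SOM than in *Dicer* ΔMT/ΔMT, by 0.32. This call was lost without a filter (0.28, adjusted p = 0.112) and without *Dicer* SOM/SOM replicate 2 (0.27, adjusted p = 0.0763) or any 1 of the *Dicer* ΔMT/ΔMT samples (0.30 to 0.32).

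By role, the calls lay in all groups of cofactors but the last. Where a gene named in 1 comparison was called in others too, those calls were added after their values were seen. Among 8 pri-miRNA cofactors, 0 were called higher and 2 lower in *Dicer* ΔMT/ΔMT, and 1 higher and 1 lower in both *Dicer* SOM/SOM and DBL. The 1 called higher was *Srrt*, by 0.67 in *Dicer* SOM/SOM and 0.69 in DBL, and by 0.52 in *Dicer* SOM/SOM relative to *Dicer* ΔMT/ΔMT. Its values under alternatives are not given here. *Srsf3*, a splicing factor that binds a motif in primary microRNAs, fell by 0.49 in *Dicer* ΔMT/ΔMT, by 0.64 in *Dicer* SOM/SOM and by 0.60 in DBL (−0.56 and adjusted p = 0.151 among samples of at most 17 weeks). *Ddx5*, a DEAD-box helicase of the microprocessor, fell by 0.42 in *Dicer* ΔMT/ΔMT. The *Srsf3* call in *Dicer* ΔMT/ΔMT was lost without 1 of 4 samples (wild-type replicates 1, 2 and 3, *Dicer* ΔMT/ΔMT replicate 3), with adjusted p-values of 0.057 to 0.0725, and that of *Ddx5* without wild-type replicate 3 (−0.36, adjusted p = 0.0517). Of the 2 transport genes, *Ran*, the GTPase that Exportin 5 needs, rose by 1.05 in *Dicer* SOM/SOM and by 0.76 in DBL. *Ipo8*, an importin that binds Argonautes, fell by 0.36 in DBL and by 0.39 in *Dicer* SOM/SOM. The *Ran* call in DBL was lost without DBL replicate 3 (0.62, adjusted p = 0.0646) or HET replicate 1 (0.69, adjusted p = 0.0584) and among samples of at most 17 weeks (0.49, adjusted p = 0.276). The *Ipo8* call in DBL was lost without any 1 of 8 of the 11 samples of the run, DBL replicates 1, 2 and 3, both RNAi samples and HET replicates 1, 2 and 4, with changes of −0.38 to −0.30. It was also lost without a filter (−0.36, adjusted p = 0.0663), in a fit of DBL and HET alone (−0.35, adjusted p = 0.0562) and among samples of at most 17 weeks (−0.17, adjusted p = 0.595). That in *Dicer* SOM/SOM was lost without a filter (−0.40, adjusted p = 0.0633), in a fit of these groups alone (−0.37, adjusted p = 0.0996) and without any 1 of the wild-type or *Dicer* ΔMT/ΔMT samples (−0.44 to −0.34). Among 11 Argonaute partners and effectors, 0 were called in *Dicer* ΔMT/ΔMT, 3 higher and 1 lower in *Dicer* SOM/SOM, 1 higher in RNAi and 4 higher in DBL. The 1 called lower was *Limd1*, by 0.22 (adjusted p = 0.0417 in edgeR), for which no values under alternatives are given here. *Trim71*, a ubiquitin ligase and known microRNA target, rose by 0.96 in *Dicer* SOM/SOM, from 137 to 266 CPM (adjusted p = 0.000515 in edgeR), and by 0.82 in DBL, from 143 to 252 CPM (adjusted p = 0.000413 in edgeR). Both calls stood in every alternative tried. It rose by 0.62 in RNAi, and by 0.66 in *Dicer* SOM/SOM relative to *Dicer* ΔMT/ΔMT. The call in RNAi was lost without RNAi replicate 1 or 2 (0.63 and 0.62, adjusted p = 0.0989 and 0.105) and among samples of at most 17 weeks (0.60, adjusted p = 0.0983).

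*Mov10*, an RNA helicase bound to Argonautes, rose by 1.03 in *Dicer* SOM/SOM against wild type, from 12.1 to 25.3 CPM (adjusted p = 0.00542 in edgeR), which stood in every alternative tried. It rose by 0.85 relative to *Dicer* ΔMT/ΔMT, and that call was lost without any 1 of the 4 *Dicer* ΔMT/ΔMT samples (adjusted p of 0.0557 to 0.0804) and in a fit of these 2 groups alone (0.86, adjusted p = 0.0518). *Ajuba*, a LIM protein that binds Argonautes, was called higher in DBL, but its means of 0.267 and 0.0484 CPM were so low that 3 counts in a HET sample are worth more than the HET mean. At this level no HET sample could meet the minimum count of 10 in the filter, so *Ajuba* was tested only through RNAi and DBL samples. It was tested in 12 of the 19 alternatives and stayed called in 4. The call was lost without DBL replicate 3 or without any 1 of the HET samples, without a filter (adjusted p = 0.0785) and with an age term (adjusted p = 0.0539). Among 10 genes of tailing, trimming and turnover, *Lin28a*, which blocks let-7 maturation, fell by 0.46 in *Dicer* ΔMT/ΔMT and by 0.32 in *Dicer* SOM/SOM. The latter call was lost with a minimum of 5 CPM (−0.26, adjusted p = 0.0576), without a filter (−0.34, adjusted p = 0.0721), in a fit of these groups alone (−0.31, adjusted p = 0.0958) and without any 1 of 8 of the samples, *Dicer* ΔMT/ΔMT replicate 1 and *Dicer* SOM/SOM replicate 1 apart, with changes of −0.34 to −0.25. *Tut7*, a terminal uridylyltransferase, and *Pnpt1*, an RNA-degrading phosphorylase, fell by 0.52 and 0.59 in *Dicer* SOM/SOM. Both calls were lost without wild-type replicate 1 (−0.49 and −0.45) and in a fit of these groups alone (−0.51 and −0.58, adjusted p = 0.0515 and 0.0584). That of *Pnpt1* was also lost without *Dicer* SOM/SOM replicate 3 (−0.50). None of the 3 genes of double-stranded RNA editing and sensing, *Adar*, *Adarb1* and *Eif2ak2*, was called in the 4 comparisons.

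**Figure D5:**
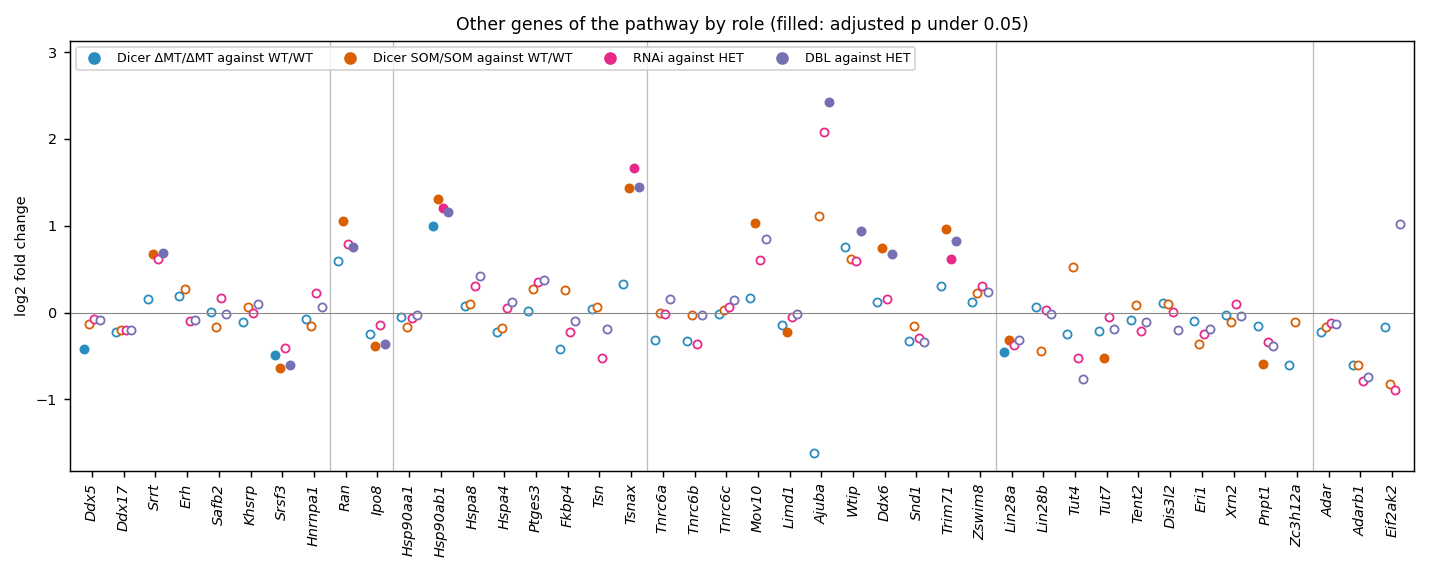
Log2 fold changes of the 42 other pathway genes in the 4 comparisons with controls, ordered by role with grey lines between roles, and with filled points for an adjusted p under 0.05 in edgeR. *Hsp90ab1* is filled and above 0 in all 4 comparisons, and *Tsnax* in the 3 with *Dicer* SOM/SOM oocytes.

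Genes with a pattern most like *Dicer1* were looked for in each run among genes with a mean of at least 1 CPM, by Pearson's correlation of log2 CPM over its 11 samples, which fall into groups set by genotype. The 5 named in each run were the highest after leaving out genes without a symbol or with a gene-model name (Gm or Rik). In the single-end run, where 15825 genes were compared, these were *Canx*, *Lin7c*, *Zfp68*, *Shisal1* and *Rapgef3*, with r of 0.984 to 0.979. Their falls were smaller than that of *Dicer1*, for example from 289 CPM in wild type to 187 CPM in *Dicer* SOM/SOM for *Canx* and from 8.14 to 3.33 CPM for *Rapgef3*. In the paired-end run, with 14753 genes, they were *Bhlhe41*, *Rora*, *Sgo2a*, *Kbtbd7* and *Arhgap19*, with r of 0.993 to 0.984, and *Bhlhe41* went from 23.4 CPM in HET to 4.38 CPM in RNAi and 4.77 CPM in DBL. Of the other 9 genes, *Prkra* in both runs and *Ago4* in the single-end run had a mean under 1 CPM and were not compared. Among the rest, *Tarbp2* was most like *Dicer1* in the single-end run, at r = 0.778, and *Dgcr8* in the paired-end run, at r = 0.865. Their ranks were 1706 and 773 among all genes compared, gene models included.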

How the data were processed

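The deposited table held expected counts per gene: the authors aligned reads with STAR 2.5.3a to mm10 (GRCm38) and counted them with featureCounts over GENCODE M15 exons, without strand, with multi-mapping reads and overlapping genes counted as fractions. These counts were rounded to whole numbers. Reads of near-identical copies could thus be divided among genes.

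The single-end and paired-end runs were fitted apart with edgeR 4.0.16 (TMM, quasi-likelihood test, R 4.3.3) after filterByExpr (minimum count 10, total 15), with all groups of a run in the fit. P-values were adjusted (Benjamini-Hochberg) over all tested genes. Intervals are 95%. Within-sample ratios, chosen after earlier results, were tested by two-sided exact permutation (scipy 1.17.1), adjusted over 18 tests, which allow no adjusted p under 0.114. Depth was 6468380 to 90713013 counts per sample, and 3 counts were worth 0.0331 to 0.4638 CPM, which covers counting error only. On simulated data, the test for *Dicer* SOM/SOM against wild type called 180 of 200 genes given a log2 change of 1.5 (22527 genes), with 5.26% of calls false, and that for RNAi against HET called 162 of 200 (20226 genes), with 5.81% false. Only genes above a floor of expected counts were given a change, and it was larger than the changes of *Dgcr8* and *Ago1*. The simulation therefore does not show how often changes of their size, or in genes of low counts such as *Prkra* and *Ago4*, would be called. Simulated counts took their spread from the trend over all genes alone. Their share of false calls thus covers only data without genes or samples that stray from this trend.

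All 10 genes were named. Of the 42 other pathway genes, the 3 called with the largest rises and the 3 with the largest falls per comparison were named. For *Dicer1* the 5 genes with the highest correlation were named, leaving out genes without a symbol or with a gene-model name (Gm or Rik). *Srrt* and *Limd1* were added outside this rule, so that their roles were not shown by falls alone or by rises alone. Members and lists were chosen with earlier results of these data known. Alternatives were DESeq2 1.42.0, other filters, only the compared groups, a replicate block, age and *Gm42418* terms, and leaving out each sample.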

Additional observations from a re-analysis of the deposited data

Results flagged for a closer look

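In groups of 4 samples, 39 sets of values (the 10 genes and 3 ratios in 3 groups) were searched for a sample far from the other 3, and 6 were found, where chance gives about 1 in 20. In HET replicate 4, *Dgcr8* was at 22.9 CPM against 19.3, 19.6 and 19.9 CPM, *Ago2* at 60.4 CPM against 41.5, 42.1 and 44.3 CPM, and the log2 ratio of *Tarbp2* to *Prkra* at 2.58 against 3.89 to 4.02. In DBL replicate 2, *Dgcr8* was at 18.1 CPM against 16.8, 16.9 and 16.9 CPM, and *Tarbp2* at 8.38 CPM against 6.52, 6.57 and 6.66 CPM. In *Dicer* ΔMT/ΔMT replicate 3, *Ago4* was at 0.613 CPM against 0.883, 0.892 and 0.933 CPM.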

How the results depend on the processing

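Of 1826 values under alternatives, 1615 kept their direction and side of the threshold, or stayed within 1.5 times the main count, 61 changed sign, 86 lost and 2 gained the call of a single gene, and 62 moved a count of calls further, as given below or beside the gene. The sign changes were all of values that were not called. The cause of each change was not tested. The 138 values of ratios could not have been called, so their side of the threshold says nothing.

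Of the 10 genes, 1 rather than 2 was called lower in *Dicer* ΔMT/ΔMT against wild type without a filter and with the block below, and 1 to 2 when a sample was left out. In *Dicer* SOM/SOM against wild type, 1 rather than 2 was called lower in a fit of only these groups and with the block, and 1 to 2 when a sample was left out, while 0 to 1 was called higher. Against *Dicer* ΔMT/ΔMT, 0 to 1 was called higher when a sample was left out. DESeq2 called 1 gene, *Dicer1*, in the difference between runs, which edgeR did not.

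Of the pathway list in *Dicer* ΔMT/ΔMT against wild type, DESeq2 called 3 higher and 5 lower, a minimum of 5 CPM gave 2 higher, a fit of only these groups gave 4 higher and 8 lower, and leaving out a sample gave 1 to 3 higher and 1 to 7 lower. In *Dicer* SOM/SOM against wild type, 3 were lower without a filter, 1 with only these groups, and 1 to 7 when a sample was left out. In *Dicer* SOM/SOM against *Dicer* ΔMT/ΔMT, DESeq2 and the minimum of 5 CPM each gave 8 higher and 1 lower, no filter gave 3 higher, and leaving out a sample gave 2 to 7 higher and 0 to 1 lower. In RNAi against HET, 1 was lower with a term for *Gm42418*, and 0 to 1 when a sample was left out. In DBL against HET, 4 were higher and 0 lower among samples of at most 17 weeks, 5 were lower in DESeq2, 1 with only these groups and 4 with the *Gm42418* term, and leaving out a sample gave 4 to 8 higher and 1 to 2 lower. Between DBL and RNAi, DESeq2 and no filter each gave 1 higher.

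With a minimum of 5 CPM the log2 fold change of *Drosha* against wild type was 0.017 with both alleles ΔMT and 0.016 with both SOM, and that of *Dicer1* between DBL and RNAi was 0.021. The latter was 4e-06 without a filter and 0.016 with the *Gm42418* term, with which *Drosha* was at −0.23 in RNAi. DESeq2 gave −0.0043 for *Xpo5* in RNAi. Among samples of at most 17 weeks *Ago3* was at 0.041 in RNAi and 0.10 in DBL, *Xpo5* at 0.037, *Prkra* at −0.11 and *Ago2* at −0.53 in DBL, and with an age term *Ago2* was at −0.015. In DBL alone the change of *Ago1* from younger to older females was −0.14.

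Leaving out 1 sample gave, in *Dicer* ΔMT/ΔMT against wild type, −0.061 to 0.059 for *Drosha*, −0.013 to 0.066 for *Xpo5*, −0.0053 to 0.099 for *Tarbp2* and −0.0038 to 0.23 for *Ago1*. In *Dicer* SOM/SOM against wild type it gave −0.13 to 0.018 for *Drosha*, −0.072 to 1.13 for *Prkra* and −0.87 to 0.027 for *Ago4*. In RNAi it gave −0.25 to 0.24 for *Drosha* and −0.14 to 0.10 for *Xpo5*, and in DBL −0.20 to 0.022 for *Xpo5*, −0.021 to 0.51 for *Prkra*, −0.12 to 0.20 for *Ago2* and −0.70 to 0.046 for *Ago4*, and between DBL and RNAi −0.09 to 0.10 for *Dicer1*.

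The difference in the share of *Ago2* was −1.12 to 1.81 percentage points between *Dicer* SOM/SOM and *Dicer* ΔMT/ΔMT and −2.42 to 0.605 between RNAi and HET when a sample was left out. That in the log2 ratio of *Tarbp2* to *Prkra* was −1.37 to 0.014 between *Dicer* SOM/SOM and wild type, −0.714 to 0.673 between *Dicer* SOM/SOM and *Dicer* ΔMT/ΔMT, −0.736 to 0.122 between RNAi and HET and −0.567 to 0.291 between DBL and RNAi. That in the log2 ratio of *Drosha* to *Dgcr8* was −0.072 to 0.112 between *Dicer* SOM/SOM and *Dicer* ΔMT/ΔMT and −0.21 to 0.0663 between DBL and HET.

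Replicate numbers in the sample titles were tried as a block. Same-numbered samples of different groups had deviations that correlated at −0.029 to 0.033 in the single-end run (9 pairs) and −0.06 to 0.179 in the paired-end run (13 pairs). Samples with different numbers gave −0.073 to 0.101 (24 pairs) and −0.188 to 0.122 (19 pairs). Numbers were matched across age classes, and such correlations cannot tell whether same-numbered samples shared a litter or a day. With the replicate block *Dgcr8* was at −0.42 with both alleles ΔMT and −0.43 with both SOM (adjusted p = 0.0856 and 0.0532 in edgeR). The calls of *Srsf3* with both alleles ΔMT (−0.48, adjusted p = 0.0575), *Ipo8* with both SOM (−0.39, 0.0708), *Mov10* and *Hsp90ab1* between these groups (0.77, 0.0578 and 0.32, 0.0841) and *Ajuba* in DBL (adjusted p = 0.0847) were lost too, and *Ago4* was at 0.02 in RNAi and 0.18 in DBL. The counts of 10 to 85 per sample limit what can be said of *Ago4*, as those of 10 to 54 limit *Prkra*.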
